A study of Homo sapiens with 20 samples.

Results

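MHC class I antigen presentation was followed through 10 genes in human Caco-2 cells exposed to live probiotic bacteria or to cell-free bacterial culture supernatants. The genes were the light chain B2M, the nonclassical heavy chains HLA-E and HLA-F, the peptide transporter genes TAP1 and TAP2, the loading factor TAPBP, the immunoproteasome subunits PSMB8, PSMB9 and PSMB10, and the transactivator NLRC5. They were chosen by name, as the probe sets that the platform annotation assigned to these symbols and to no other. This gave 10 of 19775 named genes and 21 of 54675 probe sets. Caco-2 is a colon carcinoma line that forms an enterocyte-like layer in culture, and it was differentiated here for 5 days on inserts, per the labels' protocols.

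RNA was measured on 20 Affymetrix HG-U133 Plus 2.0 arrays in 9 groups. The probiotic set held 14 arrays, with 2 per group and 5 µg of RNA each. It comprised cells left in medium for 8 h, cells exposed for 8 h to live L. acidophilus NCFM, B. lactis 420 or L. salivarius Ls-33, with 20 to 100 bacteria added for each Caco-2 cell, and cells given 10% supernatant of one of the 3 strains for 24 h. The E. coli set held 6 arrays, with 1 µg of RNA each, 3 from cells in medium for 24 h and 3 from cells with 5% supernatant of E. coli O157:H7 for 24 h. Each treatment was compared with the medium of its own array set. For the probiotic supernatants that medium was taken at 8 h, so the supernatant and the longer time cannot be told apart, and broth-only controls were not analysed here. The probiotic samples were analysed in duplicate, per the series' design text, and nothing says that the 2 arrays of a group came from separate cultures. Their p-values therefore measure only the spread between arrays, which may be technical.

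Class I molecules carry peptides from inside the cell to its surface. Proteasomes cut proteins into peptides, the TAP transporter carries these into the endoplasmic reticulum, and a loading complex fits them onto a heavy chain paired with B2M. Interferon and NF-kappa B signalling are known inducers of many of these genes, and intestinal epithelial cells present antigen to T cells through them. Values below are log2 signals as deposited, and a change is the treated mean minus the medium mean on that scale. A call is an adjusted p under 0.05 (limma, Benjamini-Hochberg over 11865 genes). Genes were tested where their mean signal in an array set was at or above a floor, the 40th percentile of the means of named genes, which was 2.74 in the probiotic set and 2.78 in the E. coli set. Of the 10 genes, 8 were tested in the probiotic set and 9 in the E. coli set.

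Arrays of the same group correlated at 0.994 to 0.997 over all probe sets. The actin control signal was higher at the 3' than at the 5' end of the transcript, a gap that grows as RNA degrades or labelling shortens. This log2 gap was 0.80 to 0.88 in 8 h medium, 1.08 to 1.54 in the co-cultures and 1.02 to 1.11 in the probiotic supernatants. It was 1.90 to 2.17 in 24 h medium and 2.12 to 2.22 with E. coli supernatant. The gap of the GAPDH control was smaller, at -0.035 to 0.020 in 8 h medium and 0.016 to 0.11 in the co-cultures. For GAPDH the probiotic supernatants gave -0.023 to 0.035, 24 h medium 0.12 to 0.22 and E. coli supernatant 0.25 to 0.34. The part of these gaps in the results was not tested. All 9 enterocyte markers were above the floor in the probiotic set and 8 of 9 in the E. coli set, where APOA1 was below. Of 9 leukocyte and antigen presenting cell markers, 3 were above the floor in the probiotic set and 2 in the E. coli set. PTPRC, CD86, CD79A, MS4A1, CD3E and TYROBP were below it in both. Their mean log2 signal over the 9 genes was 2.76 to 2.99 on the probiotic arrays, 2.48 to 2.50 in 24 h medium and 2.56 to 2.60 with E. coli supernatant. Of the 9 enterocyte markers, 4 were called lower with each of NCFM, B. lactis 420 and Ls-33 cells, beside 18.4%, 16.9% and 19.3% of all genes. In the same order 1, 2 and 3 were higher, beside 16.8%, 18.3% and 19.4%, at median changes of -0.29, -0.32 and -0.26. In the E. coli set 3 of 8 were higher and 3 lower with supernatant, beside 36.3% and 27.8% of all genes. Both leukocyte markers tested there were higher, CD14 by 0.51 and CSF1R by 0.35, and all 3 fibroblast markers tested were lower, COL1A1 by -0.90, COL1A2 by -0.81 and LUM by -0.39. In the probiotic comparisons with medium, 1 to 2 of the 3 fibroblast markers were higher and none lower. Of the 3 leukocyte markers, 1 was higher with Ls-33 cells, NCFM supernatant and Ls-33 supernatant. With NCFM cells and with Ls-33 cells 1 was lower. Of all genes, 5.28% to 19.4% were higher and 5.98% to 19.3% lower in these comparisons. The part of these markers in the results was not tested. In bulk RNA, fewer cells of a type and less RNA per cell cannot be told apart.

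Of the class I presentation genes, 5 rose in the Ls-33 co-culture, 4 in the B. lactis 420 co-culture and 2 in the NCFM co-culture. B2M, TAP1 and TAP2 rose with E. coli supernatant, beside PSMB8 and PSMB9, which were under the floor in medium. B2M rose in all 7 comparisons with medium. With Ls-33 cells, 5 of the 8 tested genes rose, B2M, TAP1, TAP2, PSMB9 and HLA-F, beside 19.4% of all genes tested. Of those 8, none fell, at an adjusted or an unadjusted p under 0.05 in limma, beside 19.3% of all genes. With B. lactis 420 cells, B2M, TAP1, TAP2 and PSMB9 rose and HLA-E fell, which was 4 of 8 higher beside 18.3% of all genes and 1 of 8 lower beside 16.9%. With NCFM cells, B2M and HLA-F rose, 2 of 8 beside 16.8% of all genes. None fell in limma, where 1 of 8 was lower at an unadjusted p under 0.05, beside 18.4% of all genes called lower. In the E. coli set, 36.3% of all genes tested rose with supernatant and 27.8% fell, and HLA-E was the one gene of the set that fell. PSMB8 and PSMB9 had medium means of 2.66 and 2.58 there, under the floor, and passed the filter only through the treated group, so no count or median over the tested genes is given for that comparison. The median log2 change of the 8 tested genes was 0.58 for Ls-33 cells, 0.36 for B. lactis 420 cells and 0.20 for NCFM cells, while the median of all genes was -0.0079, 0.0087 and -0.0060.

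With the probiotic supernatants, B2M was the one gene of the 8 that rose in each case. That was 1 of 8 beside 5.28% of all genes for NCFM, 1 of 8 beside 5.98% for B. lactis 420 and 1 of 8 beside 8.48% for Ls-33. PSMB10 fell with NCFM supernatant, 1 of 8 beside 5.98% of all genes called lower. With B. lactis 420 supernatant none of the 8 was called lower in limma, and 1 was lower at an unadjusted p under 0.05, beside 9.2% of all genes. With Ls-33 supernatant none was called lower in limma, and none at an unadjusted p under 0.05, beside 8.14%. The median log2 change of the 8 genes was -0.0065, 0.018 and 0.088 for NCFM, B. lactis 420 and Ls-33 supernatant, and that of all genes was -0.018, -0.042 and -0.010. All co-culture and probiotic supernatant comparisons share the same 2 medium arrays, so their changes are not independent.

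**Figure D1:**
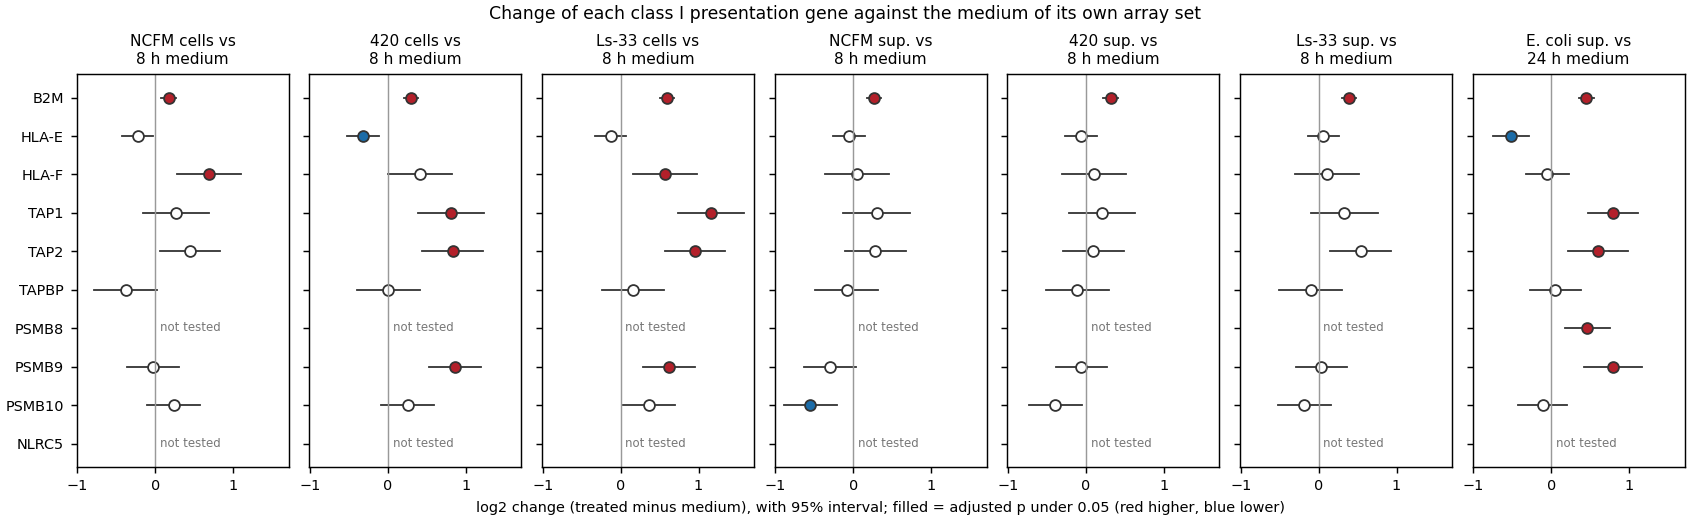
Log2 change of each class I presentation gene (rows) against the medium of its own array set, in 7 panels from live bacteria to E. coli supernatant, with 95% intervals from limma (420 is B. lactis 420, sup. is supernatant). Filled points passed an adjusted p under 0.05, red for higher and blue for lower, and B2M is filled red in every panel, from 0.17 with NCFM cells to 0.59 with Ls-33 cells.

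B2M encodes beta-2 microglobulin, the invariant light chain that every class I molecule needs. Its log2 signal was 12.13 and 12.21 in 8 h medium, 12.28 and 12.41 with NCFM cells, 12.46 and 12.48 with B. lactis 420 cells, and 12.80 and 12.74 with Ls-33 cells. With supernatants it was 12.42 and 12.46 for NCFM, 12.49 and 12.49 for B. lactis 420, and 12.57 and 12.56 for Ls-33. Every treated array was above both medium arrays, and the 2 Ls-33 co-culture arrays were the highest of the set. The changes with live NCFM, B. lactis 420 and Ls-33 were 0.17, 0.30 and 0.59, each with an SE of 0.045, at adjusted p of 0.00581, 3.75e-05 and 3.16e-09 (limma). With the 3 supernatants they were 0.27, 0.32 and 0.39 (adjusted p = 7.55e-04, 1.13e-04 and 9.22e-06, limma). In the E. coli set, B2M was 12.15, 12.28 and 12.22 in medium and 12.68, 12.67 and 12.65 with supernatant, without overlap. This change was 0.45 ± 0.044 (SE, adjusted p = 2.45e-06, limma), a 1.37-fold rise.

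The call with NCFM cells depended on the probe set, the arrays and the fit. A further B2M probe set, 216231_s_at, changed by 0.02 with NCFM cells (adjusted p = 0.718 among all probe sets, limma), but by 0.29 with live B. lactis 420, 0.52 with live Ls-33 and 0.66 with E. coli supernatant. The call with NCFM cells was also lost without medium array 1 (0.13, adjusted p = 0.0794, limma) and without NCFM co-culture array 2 (0.10, adjusted p = 0.107, limma). Without the trend of the variance on mean signal, B2M was not called with NCFM cells (adjusted p = 0.104, limma) nor with NCFM supernatant (adjusted p = 0.0607, limma). The third B2M probe set, 232311_at, was called in none of the 7 comparisons, at changes of 0.03 to 0.50 and adjusted p from 0.0525 (limma, among all probe sets).

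TAP1 and TAP2 encode the 2 subunits of the peptide transporter of the endoplasmic reticulum. TAP1 was 3.59 and 3.21 in 8 h medium, 3.86 and 3.47 with NCFM cells, 4.41 and 4.01 with B. lactis 420 cells and 4.35 and 4.77 with Ls-33 cells. Both the B. lactis 420 and the Ls-33 arrays were above the medium arrays, whereas the NCFM arrays overlapped them. TAP1 rose by 1.16 ± 0.20 (SE) with Ls-33 cells, a 2.23-fold rise (adjusted p = 1.61e-04, limma), and by 0.81 with B. lactis 420 cells (adjusted p = 0.00433). With NCFM cells the change was 0.27 (95% interval -0.16 to 0.69, adjusted p = 0.338). The B. lactis 420 call was lost without medium array 2 (0.62, adjusted p = 0.0699, limma) and without B. lactis 420 co-culture array 1 (0.62, adjusted p = 0.0718).

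With probiotic supernatants TAP1 was 3.78 and 3.62 for NCFM, 3.51 and 3.70 for B. lactis 420 and 3.82 and 3.64 for Ls-33. These changes, 0.30, 0.21 and 0.33, did not pass the test, with adjusted p of 0.382, 0.544 and 0.301 (limma). With E. coli supernatant it was 4.26, 4.28 and 4.33 against 3.25, 3.59 and 3.66 in 24 h medium, and every treated array was above every medium array. The change was 0.79 ± 0.15 (SE, adjusted p = 5.38e-04, limma).

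TAP2 moved much as TAP1 did. It was 4.09 and 4.27 in 8 h medium, 4.51 and 4.74 with NCFM cells, 5.06 and 4.97 with B. lactis 420 cells and 5.04 and 5.23 with Ls-33 cells, all 6 co-culture arrays above the medium arrays. The changes were 0.45, 0.83 and 0.95 (SE 0.19), and the last 2 passed the test at adjusted p of 0.00168 and 4.38e-04 (limma), while NCFM cells did not (adjusted p = 0.0704). With joint quantile normalization of all arrays the NCFM change was 0.50 and passed (adjusted p = 0.0447, limma). With supernatants it was 4.58 and 4.35 for NCFM, 4.10 and 4.45 for B. lactis 420, and 4.87 and 4.57 for Ls-33, where the change of 0.54 had an adjusted p of 0.0536 (limma). In the E. coli set it was 4.26, 3.73 and 4.04 in medium and 4.87, 4.46 and 4.49 with supernatant, without overlap, a change of 0.60 (adjusted p = 0.0109, limma). That call was lost without E. coli array 1 (0.47, adjusted p = 0.0571, limma). Another TAP2 probe set, 204769_s_at, was called in none of the 7 comparisons, at changes of -0.10 to 0.21, so that the TAP2 rises rest on 1 probe set. The remaining 2 TAP2 probe sets were under the floor and not tested.

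The immunoproteasome subunits replace the constitutive catalytic beta subunits of the proteasome. PSMB9 was 3.18 and 3.03 in 8 h medium, 3.20 and 2.95 with NCFM cells, 3.86 and 4.07 with B. lactis 420 cells, and 3.71 and 3.74 with Ls-33 cells. The B. lactis 420 and Ls-33 arrays were above the medium and NCFM arrays, which overlapped. PSMB9 rose by 0.86 with B. lactis 420 cells (adjusted p = 2.84e-04, limma) and by 0.62 with Ls-33 cells (adjusted p = 0.00414), whereas the change with NCFM cells was -0.03 (95% interval -0.36 to 0.31). With supernatants the values were 2.90 and 2.70 for NCFM, 3.03 and 3.06 for B. lactis 420, and 3.14 and 3.14 for Ls-33, and none passed the test. In the E. coli set PSMB9 was 2.89, 2.23 and 2.62 in medium, whose mean of 2.58 was under the floor, and 3.31, 3.24 and 3.57 with supernatant. The groups did not overlap, and the change was 0.79 ± 0.17 (SE, adjusted p = 0.00161, limma). PSMB9 passed the filter there only through the treated group.

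PSMB8 stayed near or under the floor in the probiotic set and was tested only in the E. coli set, where it too passed the filter through the treated group. It was 2.71, 2.62 and 2.64 in medium and 3.32, 3.03 and 3.01 with E. coli supernatant, without overlap. The change was 0.46 (adjusted p = 0.0086, limma). In the probiotic set PSMB8 was 2.58 and 2.25 in medium, 2.07 and 2.06 with NCFM cells, 2.34 and 2.62 with B. lactis 420 cells, and 2.79 and 2.99 with Ls-33 cells, its highest values. With no filter the changes were -0.36 with NCFM cells (adjusted p = 0.198, limma) and 0.47 with Ls-33 cells (adjusted p = 0.0698). PSMB8 was then higher with Ls-33 than with NCFM cells by 0.83 (adjusted p = 0.00526, limma), where the NCFM mean was under the floor. Ls-33 against B. lactis 420 cells, at 0.41, and B. lactis 420 against NCFM cells, at 0.42, did not pass (adjusted p = 0.288 and 0.326).

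PSMB10, the third inducible subunit, went the other way with a supernatant. It was 3.03 and 3.18 in 8 h medium, 2.56 and 2.55 with NCFM supernatant, 2.54 and 2.88 with B. lactis 420 supernatant, and 2.98 and 2.86 with Ls-33 supernatant. All 6 supernatant arrays were below both medium arrays, and the NCFM and B. lactis 420 means were under the floor. PSMB10 fell by 0.55 with NCFM supernatant (adjusted p = 0.0323, limma). The call was lost with no filter (adjusted p = 0.0569), and without any one of the 2 medium arrays or the 2 NCFM supernatant arrays (adjusted p = 0.0697 to 0.178). With live bacteria it was 3.44 and 3.24 for NCFM, 3.26 and 3.46 for B. lactis 420, and 3.42 and 3.52 for Ls-33, which were all above the medium arrays, at changes of 0.24, 0.25 and 0.36 that did not pass (adjusted p = 0.278, 0.242 and 0.0812, limma). With E. coli supernatant it was 3.47, 3.53 and 3.51 against 3.84, 3.41 and 3.59, which overlap.

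**Figure D2:**
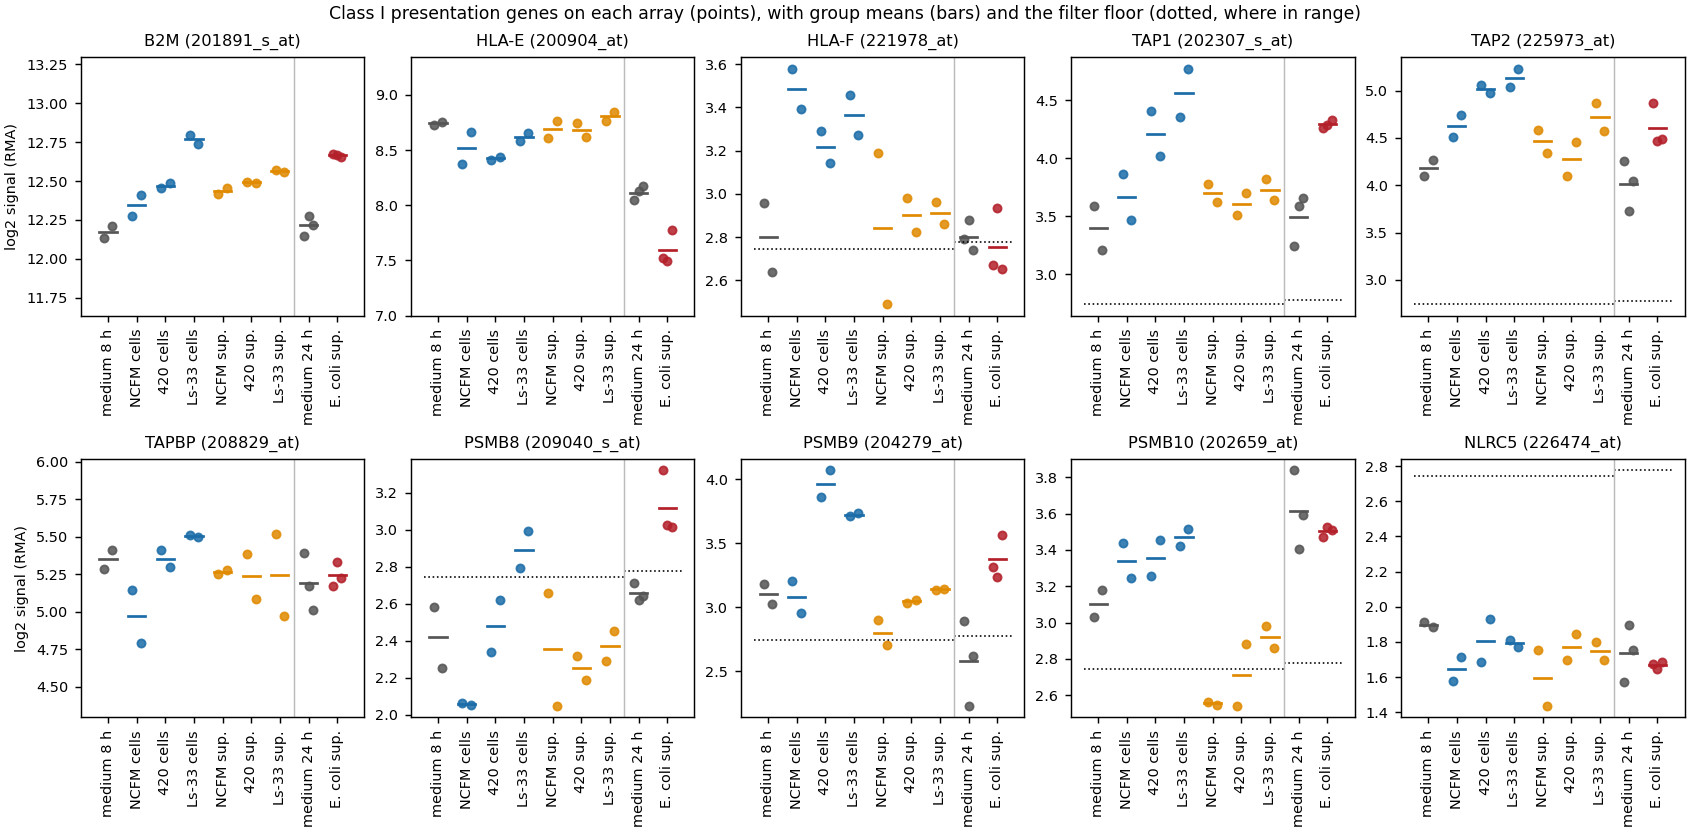
Log2 signal of each gene on every array (points, y axis, with a scale of its own in each panel), with group means (bars) and the filter floor where it is within the axis (dotted). Grey is medium, blue live bacteria, orange probiotic supernatant and red E. coli supernatant, the vertical line separates the 2 array sets, and TAP1 reaches 4.35 and 4.77 with Ls-33 cells against 3.59 and 3.21 in medium.

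The promoters of B2M, TAP1 and PSMB9, which rose in several comparisons, are shown with that of TAPBP, which was called in none and holds the kinds of response element core and kappa B motif that B2M and TAP1 hold. This choice was made after the motifs were seen. Sequences are 250 bases before a RefSeq transcript start in GRCh38.p14, 5' to 3' on the gene's own strand, and 8 of the 10 genes matched the promoter table. Capitals mark motifs found on either strand, namely GAAANNGAA (core of the interferon-stimulated response element), ATTGG (Y box) and kappa B, by its consensus. The elements overlap where capitals run on. TTCNNNGAA (core of the gamma-activated site) and TGACGTCA were also searched and are not in these windows. B2M is at chr15:44711267-44711516 (plus strand), TAP1 at chr6:32853705-32853954 (minus strand), PSMB9 at chr6:32853942-32854191 (plus strand) and TAPBP at chr6:33314079-33314328 (minus strand).
B2M: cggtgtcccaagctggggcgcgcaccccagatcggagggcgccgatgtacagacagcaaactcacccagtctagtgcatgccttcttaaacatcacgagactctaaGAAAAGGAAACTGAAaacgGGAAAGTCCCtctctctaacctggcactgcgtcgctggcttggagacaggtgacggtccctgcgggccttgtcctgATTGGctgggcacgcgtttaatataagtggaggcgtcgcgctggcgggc
TAP1: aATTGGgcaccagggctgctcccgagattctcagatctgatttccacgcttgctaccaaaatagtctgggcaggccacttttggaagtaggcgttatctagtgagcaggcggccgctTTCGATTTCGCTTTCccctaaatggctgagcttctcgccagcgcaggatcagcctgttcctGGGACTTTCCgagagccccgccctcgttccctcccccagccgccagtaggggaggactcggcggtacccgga
PSMB9: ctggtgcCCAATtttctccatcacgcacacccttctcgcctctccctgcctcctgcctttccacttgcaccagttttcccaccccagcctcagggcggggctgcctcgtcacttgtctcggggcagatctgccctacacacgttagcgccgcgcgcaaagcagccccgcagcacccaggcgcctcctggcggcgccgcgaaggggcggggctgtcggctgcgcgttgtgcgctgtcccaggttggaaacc
TAPBP: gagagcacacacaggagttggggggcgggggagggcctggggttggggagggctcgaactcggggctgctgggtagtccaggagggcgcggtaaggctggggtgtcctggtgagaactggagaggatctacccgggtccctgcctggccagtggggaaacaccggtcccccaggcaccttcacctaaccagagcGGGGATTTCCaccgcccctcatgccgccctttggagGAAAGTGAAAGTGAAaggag

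B2M, TAP1 and TAPBP each hold 2 overlapping response element cores and 1 kappa B motif. Of 35116 RefSeq promoters in the table, 6.88% hold the response element core and 5.21% the kappa B motif. In B2M the cores lie at -144 to -136 and -138 to -130 from the start and the kappa B motif at -125 to -116. In TAP1 they lie at -133 to -125 and -127 to -119, with kappa B at -72 to -63. In TAPBP they lie at -20 to -12 and -14 to -6, with kappa B at -56 to -47. The PSMB9 window holds a Y box at -243 to -239, and 32.0% of all promoters hold one. TAP1 and PSMB9 are read in opposite directions from starts 487 bases apart, and their windows share 13 bases. The Y box of PSMB9 lies in these bases and is the same as that of TAP1 at -249 to -245. The response element cores and kappa B motif of TAP1 lie between the 2 starts, outside the 250 bases searched before PSMB9. The window shown for TAP1 belongs to 1 of 2 starts in the table, and that of the other start holds no response element core, kappa B motif or Y box and 1 gamma-activated site core. TAP2, PSMB10 and HLA-F each hold 1 response element core, and PSMB8 holds none before either of its starts. A match is a run of letters and not a site of binding.

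TAPBP encodes tapasin, which bridges the TAP transporter and the heavy chain. It was 5.28 and 5.41 in 8 h medium, 5.15 and 4.79 with NCFM cells, 5.41 and 5.30 with B. lactis 420 cells, and 5.51 and 5.50 with Ls-33 cells. The Ls-33 arrays were above and the NCFM arrays below the medium arrays. Neither change, 0.16 or -0.38, passed the test (adjusted p = 0.555 and 0.137, limma), and TAPBP was called in no comparison with medium. With E. coli supernatant it was 5.17, 5.33 and 5.23 against 5.39, 5.18 and 5.01, which overlap, and the interval of the difference ran from -0.28 to 0.38.

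HLA-E is a heavy chain that presents leader peptides to natural killer cells, and its representative probe set was lower with live bacteria and with E. coli supernatant. It was 8.73 and 8.76 in 8 h medium, 8.37 and 8.66 with NCFM cells, 8.41 and 8.44 with B. lactis 420 cells, and 8.58 and 8.65 with Ls-33 cells, all below the medium arrays. HLA-E fell by 0.32 with B. lactis 420 cells (adjusted p = 0.0138, limma), and was -0.23 and -0.13 with NCFM and Ls-33 cells, which did not pass. The call was lost without medium array 2 (adjusted p = 0.0719, limma) and without B. lactis 420 array 1 (adjusted p = 0.0695). With the supernatants of NCFM, B. lactis 420 and Ls-33 the HLA-E changes were -0.05, -0.06 and 0.06. None of these passed (adjusted p = 0.776, 0.702 and 0.718, limma). In the E. coli set HLA-E was 8.04, 8.13 and 8.17 in medium and 7.52, 7.50 and 7.77 with supernatant. That was a fall of 0.52 without overlap (adjusted p = 0.00101, limma).

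The probe sets of HLA-E did not run the same way. 200905_x_at rose by 0.31 with E. coli supernatant (adjusted p = 0.0013 among all probe sets, limma) and by 0.32 with Ls-33 cells (adjusted p = 0.00252). 217456_x_at rose by 0.25 with E. coli supernatant (adjusted p = 0.0238). The suffix _x_at marks probe sets that may bind other transcripts, which for HLA genes share long stretches of sequence. The direction of HLA-E therefore depends on the probe set.

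HLA-F is a heavy chain that can reach the surface without peptide, and its representative probe set was close to the floor. It was 2.96 and 2.64 in 8 h medium, 3.58 and 3.39 with NCFM cells, 3.29 and 3.14 with B. lactis 420 cells, and 3.46 and 3.27 with Ls-33 cells, so all 6 co-culture arrays were above the medium arrays. The changes were 0.69 (adjusted p = 0.0104, limma), 0.42 (adjusted p = 0.109) and 0.57 (adjusted p = 0.028). The NCFM call was lost without medium array 2 (0.53, adjusted p = 0.115) or NCFM array 1 (0.59, adjusted p = 0.0721), and the Ls-33 call without medium array 2 (0.41, adjusted p = 0.218), Ls-33 array 1 (0.47, adjusted p = 0.164) or Ls-33 array 2 (0.66, adjusted p = 0.0513). The other 2 HLA-F probe sets, both _x_at, were well above the floor, with means of 8.38 and 8.40 in 8 h medium. They changed by -0.14 to 0.21 over the 7 comparisons and were not called, so that the HLA-F rises rest on 1 probe set near the floor.

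**Figure D3:**
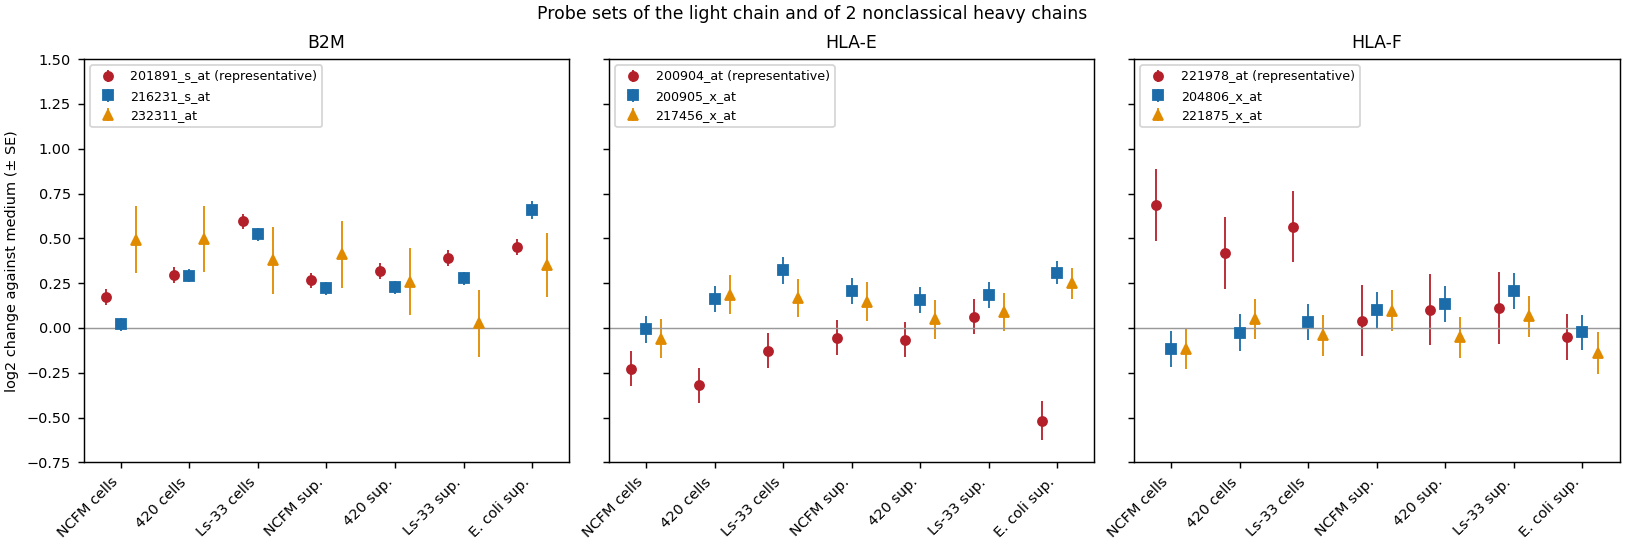
Log2 change against medium (± SE) of each probe set of B2M, HLA-E and HLA-F over the 7 treatments, the representative probe set in red (420 is B. lactis 420). For HLA-E with E. coli supernatant the representative lies at -0.52 and the other sets at 0.31 and 0.25.

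NLRC5, the transactivator of class I genes, was at 1.44 to 1.93 on all 20 arrays and every group mean was under the floor, so it was not tested.

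The test of a difference among the 3 co-cultures was passed by 3 of 8 genes, beside 13.7% of all genes. These were B2M (adjusted p = 5.89e-06), PSMB9 (adjusted p = 0.00182) and TAP1 (adjusted p = 0.0158, limma F-test). Ls-33 cells exceeded NCFM cells in 3 of 8, beside 8.13% of all genes, with B2M higher by 0.42 (adjusted p = 1.82e-06), TAP1 by 0.89 (adjusted p = 0.00534) and PSMB9 by 0.65 (adjusted p = 0.00872, limma). None was lower, at an adjusted or an unadjusted p under 0.05 in limma, beside 6.55%. TAP2 was higher by 0.51, which did not pass (95% interval 0.12 to 0.90, adjusted p = 0.075). The TAP1 and PSMB9 differences lost their call without NCFM array 2 (adjusted p = 0.0669 and 0.0814, limma) and without Ls-33 array 2 (adjusted p = 0.0953 and 0.0559), and B2M kept it in each case.

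Between Ls-33 and B. lactis 420 cells, B2M alone of 8 differed, higher by 0.30 with Ls-33 (adjusted p = 5.9e-04, limma), beside 2.88% of all genes called higher. Without the trend this call was lost (adjusted p = 0.0732, limma). None was lower in limma, nor at an unadjusted p under 0.05, beside 2.7%. TAP1 differed by 0.35 (95% interval -0.08 to 0.78) and TAP2 by 0.12 (-0.27 to 0.51), without passing. PSMB9 was lower with Ls-33 by -0.24 (-0.57 to 0.09), which did not pass, although the 2 groups' arrays did not overlap. Between B. lactis 420 and NCFM cells, PSMB9 alone of 8 was called, higher by 0.89 with B. lactis 420 (adjusted p = 0.00234, limma), beside 2.28% of all genes. None was lower in limma, nor at an unadjusted p under 0.05, beside 0.759%. That call was lost in a fit with only the compared arrays (adjusted p = 0.0571, limma).

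Among the probiotic supernatants none of the 8 genes passed the test of a difference between strains (limma F-test, with 1 at an unadjusted p under 0.05), beside 0.0337% of all genes. Whether the strain difference depended on live cells or supernatant was passed by B2M alone (1 of 8, adjusted p = 0.0184, limma), beside 4.4% of all genes. That call was lost in limma without the trend. The B2M level with cells minus that with supernatant was -0.094 for NCFM, -0.021 for B. lactis 420 and 0.20 for Ls-33. With probe set 216231_s_at it was -0.20, 0.064 and 0.24 (interaction adjusted p = 1.78e-04 among all probe sets, limma).

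The order of group means in the probiotic set was not the same for each gene. For TAP1 it ran from Ls-33 cells at 4.56 through B. lactis 420 cells at 4.21, whose arrays overlapped, to medium at 3.40, and below the B. lactis 420 cells the arrays of each group overlapped those of the next. For PSMB9 B. lactis 420 cells were first at 3.97 and Ls-33 cells next at 3.72. For B2M Ls-33 cells came first, then the supernatants of Ls-33 at 12.56 and of B. lactis 420 at 12.49, then B. lactis 420 cells at 12.47, and medium was last at 12.17.

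TAP2, PSMB8, TAP1 and PSMB9 lie next to each other on chromosome 6, within the class II region. Of the 16 neighbouring protein-coding genes, 14 had a probe set and 8 were tested. With Ls-33 cells 1 of these 8 was called, BRD2, a chromatin reader, lower by 0.61 (adjusted p = 7.25e-05, limma). That was 1 of 8 lower beside 19.3% of all genes, and none higher beside 19.4%. With E. coli supernatant BRD2 rose by 0.97 (adjusted p = 1.53e-06), as did HLA-DMA, a class II loading factor, by 0.99 (adjusted p = 1.27e-04) and HLA-DPA1 by 0.46 (adjusted p = 0.0448), and RXRB fell by 0.65 (adjusted p = 0.00443, limma). That was 3 of 8 higher, near the 36.3% of all genes, and 1 of 8 lower, beside 27.8%. The median change of the 8 neighbours was -0.087 with Ls-33 cells and 0.018 with E. coli supernatant, and that of all genes was -0.0079 and 0.048.

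**Figure D4:**
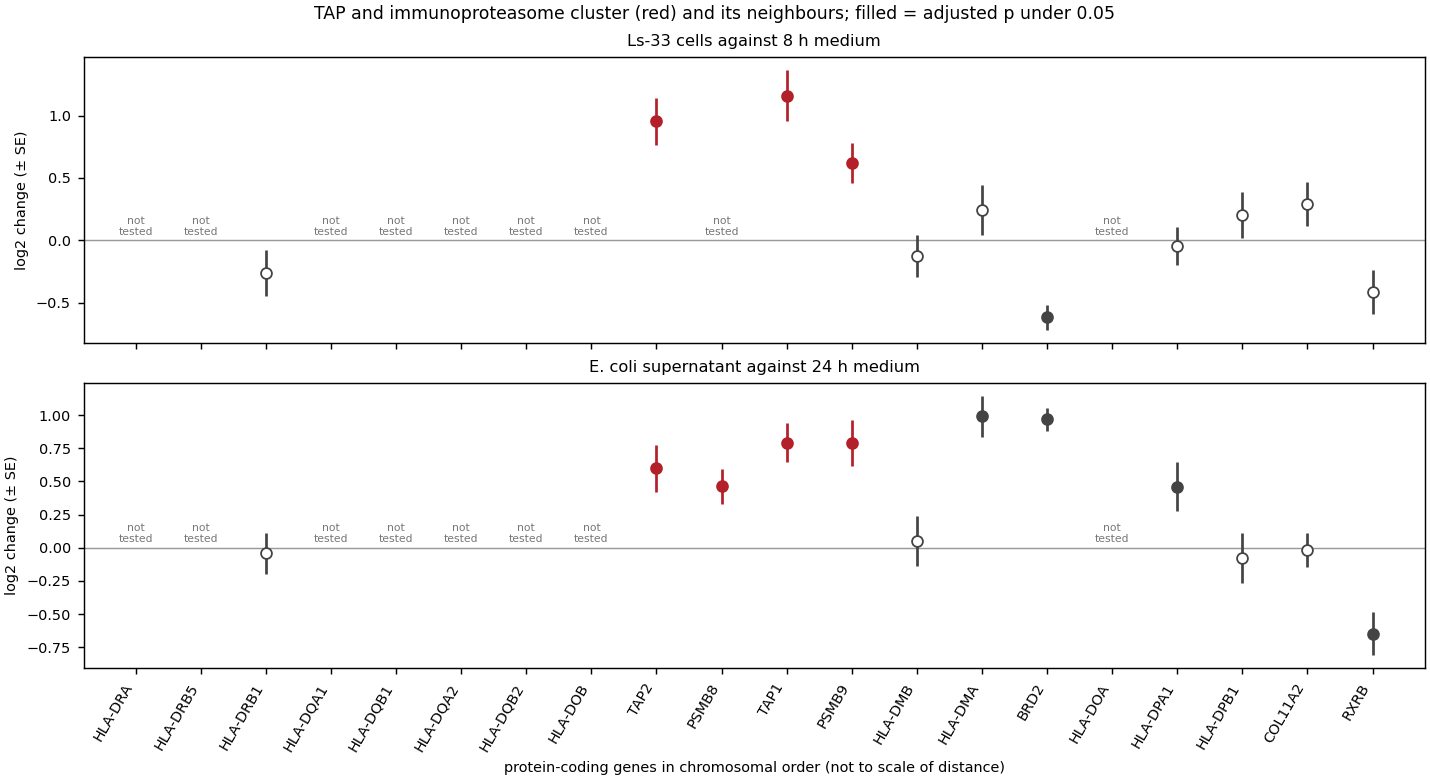
Log2 change (± SE) of the TAP and immunoproteasome genes (red) and their neighbours (grey) in chromosomal order, with Ls-33 cells above and E. coli supernatant below, filled where the adjusted p was under 0.05. TAP2, TAP1 and PSMB9 stand at 0.95, 1.16 and 0.62 with Ls-33 cells, and BRD2 lies at -0.61 there and at 0.97 with E. coli supernatant.

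Of 19 transcriptional regulators of class I genes, 16 had a probe set and 15 were tested. With E. coli supernatant 10 of 15 rose, beside 36.3% of all genes, with NFKB1 by 3.13 (adjusted p = 4.18e-09), IRF1 by 3.40 (adjusted p = 2.96e-08), RELB by 2.70 (adjusted p = 3.41e-08) and REL by 2.39 (adjusted p = 8.67e-08, limma). IRF1 is an interferon-induced activator, and the others are NF-kappa B subunits. The median change of the 15 was 1.03. With B. lactis 420 cells 7 of 15 rose, beside 18.3% of all genes, and none fell, beside 16.9%. With Ls-33 cells 6 of 15 rose, beside 19.4%, and 1 fell, beside 19.3%. NFKB2 rose by 1.38 and 1.51, RELB by 1.06 and 0.83, REL by 0.63 and 0.75 and IRF1 by 0.66 and 0.79 with B. lactis 420 and Ls-33 cells. With NCFM cells 3 of 15 rose, near the 16.8% of all genes, and 1 fell, beside 18.4%. The IRF1 change there was -0.07. IRF1 was higher with Ls-33 than with NCFM cells by 0.86 (adjusted p = 0.00382, limma) and NFKB2 by 1.19 (adjusted p = 4.85e-05). With Ls-33 supernatant 3 of 15 rose, beside 8.48% of all genes, among them IRF9 by 0.94 (adjusted p = 0.00318) and IRF1 by 0.59 (adjusted p = 0.0375, limma). With NCFM supernatant 1 rose, IRF9 by 0.80 (adjusted p = 0.0142, limma), beside 5.28%. With B. lactis 420 supernatant none rose, beside 5.98%.

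**Figure D5:**
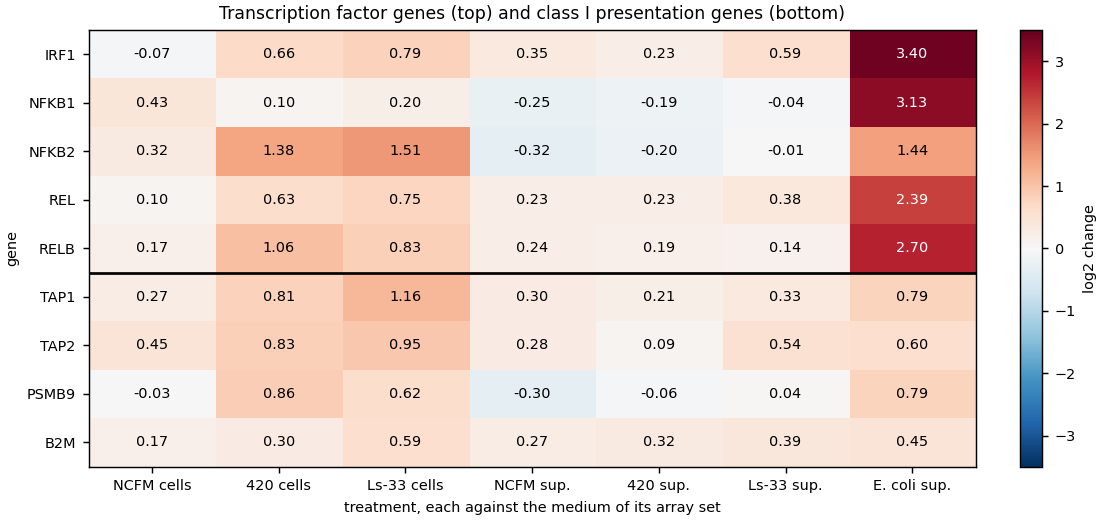
Log2 change of 5 transcription factor genes (top) and 4 class I presentation genes (bottom) in the 7 comparisons, as numbers and on a colour scale (420 is B. lactis 420, sup. is supernatant). The 5 factors were picked after their values were seen, and NFKB1 and IRF1 change by 3.13 and 3.40 with E. coli supernatant, where TAP1 changes by 0.79.

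Of 9 interferon receptors and kinases, 8 were tested. IFNGR1, the ligand-binding chain of the interferon-gamma receptor, rose by 0.32 with B. lactis 420 cells, 0.45 with Ls-33 cells and 0.54 with E. coli supernatant (adjusted p = 2.37e-04, 4.95e-06 and 1.51e-06, limma). IFNGR2, its partner, fell by 1.11 with NCFM cells (adjusted p = 8.02e-08) and by 0.32 and 0.36 with B. lactis 420 and Ls-33 cells. JAK1, a kinase of these receptors, rose by 0.44 with Ls-33 cells and by 0.58 with E. coli supernatant. In all, 3 of 8 rose and 1 fell with Ls-33 cells, beside 19.4% and 19.3% of all genes. With NCFM cells 1 rose and 2 fell, beside 16.8% and 18.4%. With B. lactis 420 cells 1 rose and 1 fell, beside 18.3% and 16.9%. The E. coli comparison gave 3 rises of 8, near the 36.3% of all genes.

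Of 10 peptide loading and trimming genes outside the set, 9 were tested. With NCFM cells 6 of 9 fell, beside 18.4% of all genes, with B. lactis 420 cells 6, beside 16.9%, with Ls-33 cells 4, beside 19.3%, and with E. coli supernatant 7, beside 27.8%. In the co-cultures 1 rose, ERAP2 with Ls-33 cells, beside 19.4%. With the supernatants of NCFM, B. lactis 420 and Ls-33 the rises were 2, 2 and 3 of 9, beside 5.28%, 5.98% and 8.48%. The falls were 0, 1 and 0, beside 5.98%, 9.2% and 8.14%. The glucosidase subunit GANAB fell by 0.98 (adjusted p = 1.46e-07) and PDIA3, a loading complex oxidoreductase, by 0.41 with E. coli supernatant. ERAP1, a peptide-trimming protease, fell by 0.82 and 0.75 with NCFM and B. lactis 420 cells, and its change with Ls-33 cells was -0.01, higher than with NCFM by 0.80 (adjusted p = 4.46e-05, limma). For CALR, the calreticulin chaperone, the representative set fell by 1.16 with NCFM cells but 2 _x_at sets rose by 1.16 and 0.99 (adjusted p = 0.0032 and 0.0029 among all probe sets, limma), so that its direction there depends on the probe set. For constitutive beta subunits, proteasome activators and assembly factors, 9 genes were tested. With NCFM cells 3 rose and 0 fell, beside 16.8% and 18.4% of all genes. With B. lactis 420 cells 6 rose and 1 fell, beside 18.3% and 16.9%. With Ls-33 cells 4 rose and 1 fell, beside 19.4% and 19.3%. With the supernatants of NCFM, B. lactis 420 and Ls-33 the rises were 2, 2 and 0, beside 5.28%, 5.98% and 8.48%. The falls were 2 each, beside 5.98%, 9.2% and 8.14%. With E. coli supernatant 5 rose and 3 fell, beside 36.3% and 27.8%. PSME3 and PSME4, proteasome activators, rose by 1.69 and 1.57, and PSME1, an interferon-inducible activator subunit, fell by 0.67 (adjusted p = 6.43e-05, limma).

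Of 9 other heavy chains and B2M partners, 8 had a probe set and 7 were tested. With NCFM cells 1 of 7 rose and 3 fell, beside 16.8% and 18.4% of all genes. With B. lactis 420 cells 2 rose and 2 fell, beside 18.3% and 16.9%. With Ls-33 cells 2 rose and 2 fell, beside 19.4% and 19.3%. With the supernatants of NCFM, B. lactis 420 and Ls-33 the rises were 2, 4 and 3, beside 5.28%, 5.98% and 8.48%. The falls there were 0, 1 and 1, beside 5.98%, 9.2% and 8.14%. With E. coli supernatant 3 rose and 1 fell, beside 36.3% and 27.8%. FCGRT, the neonatal Fc receptor chain that also pairs with B2M, fell by 1.24, 1.33 and 1.59 in the NCFM, B. lactis 420 and Ls-33 co-cultures and by 1.96 with E. coli supernatant (adjusted p = 6.64e-07, 2.27e-07, 1.53e-08 and 6.44e-08, limma). MICA, a stress ligand of the NKG2D receptor that does not need B2M, rose by 0.34, 0.34, 0.29 and 0.56 in the same comparisons. The representative set of the heavy chain HLA-C fell by 0.23 with NCFM cells (adjusted p = 0.00462 among all probe sets, limma). Its other sets changed there by -0.14, -0.29 and 0.0075 (adjusted p = 0.0241, 0.0182 and 0.947). Class II presentation genes, 6 of 12 tested, gave 2 rises with E. coli supernatant, HLA-DMA and HLA-DPA1, near the 36.3% of all genes. With B. lactis 420 cells, NCFM supernatant and Ls-33 supernatant 1 of 6 rose each, beside 18.3%, 5.28% and 8.48%. None rose with NCFM cells, Ls-33 cells or B. lactis 420 supernatant, beside 16.8%, 19.4% and 5.98%. CD74, the invariant chain, fell by 0.56 with NCFM cells and by 0.72 with B. lactis 420 cells. With each, 1 of the 6 was called lower, beside 18.4% and 16.9% of all genes.

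Genes whose 7 group means in the probiotic set followed a member most closely were sought among 1371 tested genes with a range of at least 1. These correlations are descriptions over 7 means that share the same arrays and normalization. TAP1 was closest to CEACAM7 (r = 0.986), NAA15 (0.981) and CASP10 (0.981). PSMB9 was closest to CCL20 (0.982), IKBKE (0.964) and ANKRD33B (0.958), TAP2 to PMAIP1 (0.986) and B2M to TCN1 (0.964). The closest to PSMB10 was EXOC3 (0.991), to HLA-F ZC2HC1A (0.978), to HLA-E MOB3B (0.976) and to TAPBP ICAM1 (0.943). Among the class I genes themselves r was 0.930 for TAP1 with TAP2, 0.821 for TAP1 with PSMB9, 0.805 for TAP1 with B2M and -0.738 for HLA-E with HLA-F. The first and last of these were the extremes. Weaker pairs lay between them, such as B2M with PSMB9 (0.450), B2M with PSMB10 (0.180) and B2M with HLA-E (-0.054).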

How the data were processed

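Values were the deposited log2 probe set summaries of Affymetrix HG-U133 Plus 2.0 arrays of RMA, made by the authors according to the submitters' processing notes. Its version is not given in the sources used here, nor is whether normalization covered both sets jointly. The number of arrays limits the precision, and no scanner files were used.

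Of 54675 probe sets, 41091 carried 1 symbol in the platform annotation, 1801 several, 11721 none and 62 were controls. Symbols were updated by Entrez identifier to the RefSeq table of GRCh38.p14, and 54 probe sets without a match kept theirs. Each gene was represented by its probe set with the highest mean over the 20 arrays, leaving out _x_at sets where others existed.

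Groups were compared by limma 3.58.1 under R 4.3.3 (lmFit, eBayes with trend), over 14 arrays for the probiotic set and 6 for the E. coli set, with Benjamini-Hochberg adjustment over 11865 genes. The fits were tested on simulated data. Replicate numbers did not pair the arrays. Results were recomputed without the filter, with it at the 60th percentile, without the trend, after joint quantile normalization, with every probe set tested, with other probe sets of the members, with other arrays in the fit, with a replicate block and without each array.

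Named are the 10 members, up to 4 called genes of lowest adjusted p per list and comparison, and up to 3 genes of closest pattern per tested member. The members and lists were chosen with earlier results of these data known. Genes of the lists without a probe set of their symbol alone were left out.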

Additional observations from a re-analysis of the deposited data

Results flagged for a closer look

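The B2M difference between strains depended on whether live bacteria or supernatant was given (limma interaction test, adjusted p = 0.0184 over all genes). The level with cells minus that with supernatant was -0.094 for NCFM, -0.021 for B. lactis 420 and 0.20 for Ls-33. Cells and supernatant also differ in exposure time, 8 h against 24 h, so that format and time cannot be told apart. The call was lost without the trend and without NCFM supernatant array 2, Ls-33 co-culture array 1 or either Ls-33 supernatant array.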

How the results depend on the processing

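Of 1575 values for single genes on the representative probe set, 1516 kept their direction and their side of the threshold, 26 lost their call, 8 gained one and 25 changed sign. Of these 25, none was called before or after. With a filter at the 60th percentile, which leaves fewer of the genes tested, the count of higher calls was 1 with NCFM cells (2 as reported), 1 with B. lactis 420 cells (4), 1 with Ls-33 cells (5), 1 for Ls-33 against NCFM (3) and 0 for B. lactis 420 against NCFM (1), and the count for any difference among co-cultures was 1 (3). NCFM supernatant gave 0 lower calls (1 as reported) with that filter, with no filter and with every probe set tested. Without the trend, higher calls were 0 with NCFM supernatant (1), 2 with Ls-33 supernatant (1) and 0 for Ls-33 against B. lactis 420 (1), and the interaction gave 0 (1). With only the compared arrays, B. lactis 420 against NCFM gave 0 (1). Counts for the E. coli set are left out, since PSMB8 and PSMB9 passed the filter there only through the treated group. The cause was not tested.

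Leaving out 1 array at a time cost several of the calls above, among them TAP1 with B. lactis 420 cells and HLA-F with NCFM and Ls-33 cells. A lone remaining array is assumed to vary like the other groups. With the replicate number as a block, every count in the probiotic set was as reported (2, 4 and 5 higher with NCFM, B. lactis 420 and Ls-33 cells). Arrays with the same number did not deviate together, with correlations of -0.10 to 0.057 over 42 pairs of the probiotic set and -0.14 to 0.036 over 3 pairs of the E. coli set. In the probiotic set the 2 arrays of a group mirror each other around their mean. Replicates 1 and 2 therefore give the same correlation, and the 42 pairs are not 42 separate values. Changes near 0 crossed it without 1 array. For HLA-F the range was -0.31 to 0.39 with NCFM supernatant, -0.057 to 0.26 with B. lactis 420 supernatant, -0.046 to 0.27 with Ls-33 supernatant and -0.081 to 3.8e-04 with E. coli supernatant. For PSMB9 it was -0.15 to 0.098 with NCFM cells, -0.14 to 0.019 with B. lactis 420 supernatant and -0.041 to 0.11 with Ls-33 supernatant. For TAPBP it was -0.059 to 0.070 with B. lactis 420 cells, -0.26 to 0.036 and -0.38 to 0.17 with B. lactis 420 and Ls-33 supernatant, and -0.041 to 0.15 with E. coli supernatant. For HLA-E it was -0.13 to 0.023 and -0.13 to 5.7e-04 with NCFM and B. lactis 420 supernatant, -0.045 to 0.24 for Ls-33 against NCFM cells and -0.24 to 0.051 for B. lactis 420 against NCFM cells. For PSMB10 it was -0.082 to 0.12 for B. lactis 420 against NCFM cells and -0.21 to 0.0013 with E. coli supernatant, and for TAP2 -0.083 to 0.27 with B. lactis 420 supernatant. Joint normalization gave TAPBP -0.013 with B. lactis 420 cells and -0.15 with E. coli supernatant, and PSMB10 -0.015 for B. lactis 420 against NCFM cells.

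Other probe sets gave 89 values, of which 43 kept direction and side, 10 lost the call, 2 gained it and 34 changed sign. In 2 of these the representative and the other set were both called, HLA-E with E. coli supernatant at 0.31 and 0.25. HLA-E 200905_x_at gave 0.16 with B. lactis 420 cells, 0.32 with Ls-33 cells, 0.21 and 0.16 with NCFM and B. lactis 420 supernatant, and 0.17 for B. lactis 420 against NCFM cells. HLA-E 217456_x_at gave 0.18 and 0.17 with B. lactis 420 and Ls-33 cells, 0.15 and 0.049 with NCFM and B. lactis 420 supernatant, -0.017 for Ls-33 against B. lactis 420 cells and 0.24 for B. lactis 420 against NCFM cells. HLA-F 204806_x_at gave -0.12 and -0.025 with NCFM and B. lactis 420 cells, 0.15 for Ls-33 and 0.093 for B. lactis 420 against NCFM cells. HLA-F 221875_x_at gave -0.11 and -0.041 with NCFM and Ls-33 cells, -0.052 with B. lactis 420 supernatant, 0.073 for Ls-33 and 0.17 for B. lactis 420 against NCFM cells, and -0.092 for Ls-33 against B. lactis 420 cells. TAP2 204769_s_at gave -0.097 and -0.073 with NCFM and B. lactis 420 cells, -0.071 with NCFM supernatant and -0.011 with E. coli supernatant. TAPBP 1555565_s_at gave -0.086 and -0.074 with B. lactis 420 and Ls-33 cells, 0.069 with B. lactis 420 supernatant and -0.14 with E. coli supernatant, and 210294_at gave 0.096 with NCFM supernatant. B2M 232311_at gave -0.11 for Ls-33 against NCFM and -0.12 for Ls-33 against B. lactis 420 cells. The cause was not tested. Genes near or under the floor, among them PSMB8, PSMB9, PSMB10, NLRC5 and HLA-F by its representative probe set, are measured less firmly than those well above it.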

Other observations

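ERAP2, a second peptide-trimming protease, rose by 0.88 with Ls-33 cells and by 0.75, 0.93 and 0.94 with the supernatants of NCFM, B. lactis 420 and Ls-33 (adjusted p = 3.71e-04, 0.00715, 0.00115 and 8.65e-04, limma), and it was higher with Ls-33 than with NCFM cells by 0.81 (adjusted p = 0.00262). Its probe set 219759_at fell by 1.40 with NCFM cells (adjusted p = 3.9e-04 among all probe sets, limma), where the representative changed by 0.07. With NCFM and B. lactis 420 supernatant the rise rests on 1 probe set, since the other 3 tested changed by 0.25, 0.25 and -0.0085 (adjusted p = 0.394, 0.648 and 0.985 among all probe sets, limma) and by 0.36, -0.094 and 0.27 (adjusted p = 0.158, 0.871 and 0.308). With Ls-33 supernatant 1 of the other 3 was called, 1554273_a_at, at 0.61 (adjusted p = 0.0152). MICB, like MICA a ligand of the NKG2D receptor, rose by 0.41, 0.32 and 0.49 with the same 3 supernatants.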
